A study of Rattus norvegicus with 5 samples.

Results

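Cell cycle genes were followed in rat cerebellar granule cells, the small excitatory neurons that make up most of the cerebellum. A list of 54 genes that act in DNA replication, mitosis or the control of both was taken by name, and 49 of them were found among the 14217 genes named on the Affymetrix array. They comprised 17 genes of DNA replication, 23 of mitosis and 9 others. Cdc6, Rrm2, Nek2, Tpx2 and Hmgb2 had no probe set that carried their symbol alone. On the two-colour arrays 43 of the 54 were found, 41 of them on both platforms, while Cdc6 and Rrm2 were read on the two-colour arrays only and Nek2, Tpx2 and Hmgb2 on neither.

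The cells came from Wistar rats 8 days old and were harvested after 1 day in culture (D1), after 5 days (D5), or after 5 days in which 10 µM ICRF-193 was added daily (D5+). D5 and D5+ were thus parallel cultures harvested on the same day. Below, the first step is D5 against D1. The second step is D5+ against D5, a difference between treatments and not a later time. ICRF-193 is a catalytic inhibitor of type II DNA topoisomerases, enzymes that pass one DNA duplex through another; the study used it to block topo IIβ, the form made in neurons. All cultures received 10 µM cytosine arabinoside, a nucleoside that stops DNA synthesis and was added against glial growth, first with a medium change at 15 to 16 h, again at 24 h and every 48 h from then on. D1 cells had therefore met it for some hours and D5 cells for days. Each condition was read on 1 Affymetrix array. In addition, 1 two-colour array carried D5 (Cy5) and D1 (Cy3) together, and another D5 (Cy5) and D5+ (Cy3). No difference therefore has a replicate check, no p-value is given, and precision is limited by how few arrays there were. The sources do not say whether both platforms used RNA of the same cultures, or how many cultures or animals were pooled.

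Affymetrix values are linear signal intensities. The 40th percentile of each array, 19.2 for D1, 16.7 for D5 and 16.3 for D5+, served as a floor: a gene entered a comparison when it reached the floor on at least 1 of the 2 arrays, and a difference was counted when it passed 2-fold. A fold against a signal under the floor is given as "at least", computed against the floor. Within the Affymetrix data the only measure of error at hand was the spread between probe sets for the same gene. Such probe sets read the same RNA on the same arrays, so this spread holds no difference between cultures or arrays. For genes with D5 signals of 20 to 50 the SD of log2 D5+/D5 between such probe sets was 0.55. For D5 signals of 200 to 1000 it was 0.19, so that ratios at low signals are much less firm. Median signals of the arrays were 32.9, 29.2 and 28.0 for D1, D5 and D5+, and the median gene in the comparisons stood at -0.21 (D5/D1), -0.12 (D5+/D5) and -0.32 (D5+/D1) on the log2 scale.

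A dividing cell copies its DNA in S phase and separates the copies in mitosis. Before S phase, licensing factors load the Mcm helicase on origins of replication, and the E2F transcription factors, held back by the pocket proteins Rb1, Rbl1 and Rbl2 until cyclin-dependent kinases release them, switch on the genes of S phase. Mitotic genes come later: in mammals many are held off by the MuvB complex, which binds a promoter element called the cell cycle homology region (CHR), and are turned on by Mybl2 and Foxm1. In the cerebellum, granule cell precursors divide in the outer layer during the first weeks after birth in rodents and then leave the cycle to become neurons, while glia keep some capacity to divide.

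The promoters of both classes were read because their elements differ. RefSeq windows from 250 bases before to 50 bases after the start of transcription (GRCr8) were at hand for 43 of the 54 genes. They were searched on both strands for the E2F sites TTTCCCGC, TTTCGCGC, TTTGCCGC and TTTGGCGC, for the CHR TTTGAA, and for CCAAT, the site of the factor NF-Y. Hits may overlap, as a pair of E2F sites on opposite strands does in Gins1. An E2F site was found in 9 of 16 replication promoters (56.2%) and in 1 of 21 mitosis promoters (4.76%), that of Cdk1, against 3.74% of the 11733 genes on the Affymetrix array with a window and 2.14% of all 33469 windows. The CHR showed the opposite division, with 12 of 21 mitosis promoters (57.1%) and 1 of 16 replication promoters (6.25%, Mcm2), against 13.3% of array genes and 18.3% of all windows. CCAAT was common in both, in 10 of 16 replication and 16 of 21 mitosis promoters, against 38.6% of array genes.

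The windows printed are, first, those of the 3 replication genes with the largest ratios between D1 and D5+ that held a motif, signals under the floor being set at the floor for this ranking, with every match in capitals. Cdc45 (the helicase's activating subunit) carried 4 CCAAT matches and none of the E2F letters searched, Cdt1 (which loads Mcm) 2 E2F matches, and Gins1 (part of the active helicase) 2 overlapping E2F matches and 2 of CCAAT.
Cdc45, chr11:95689928-95690227, plus strand: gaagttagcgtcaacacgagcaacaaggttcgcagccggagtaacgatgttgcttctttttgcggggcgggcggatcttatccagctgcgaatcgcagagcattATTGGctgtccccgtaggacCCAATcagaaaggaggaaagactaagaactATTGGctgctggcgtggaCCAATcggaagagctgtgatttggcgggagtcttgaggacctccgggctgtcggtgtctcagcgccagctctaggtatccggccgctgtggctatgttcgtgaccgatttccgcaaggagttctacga
Cdt1, chr19:67528999-67529298, plus strand: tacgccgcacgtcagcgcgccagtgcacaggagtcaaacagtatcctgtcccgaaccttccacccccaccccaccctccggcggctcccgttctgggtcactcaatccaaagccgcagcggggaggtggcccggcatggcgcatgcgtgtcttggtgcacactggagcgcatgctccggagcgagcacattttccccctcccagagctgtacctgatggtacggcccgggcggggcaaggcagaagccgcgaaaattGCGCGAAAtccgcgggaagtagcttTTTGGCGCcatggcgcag
Gins1, chr3:160184670-160184969, plus strand: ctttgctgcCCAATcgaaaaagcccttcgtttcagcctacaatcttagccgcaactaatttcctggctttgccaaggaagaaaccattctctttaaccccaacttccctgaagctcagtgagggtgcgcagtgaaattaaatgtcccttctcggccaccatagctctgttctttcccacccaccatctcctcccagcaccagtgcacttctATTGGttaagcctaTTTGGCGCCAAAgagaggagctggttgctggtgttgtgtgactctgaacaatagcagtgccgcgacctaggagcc

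The same rule gave the mitosis genes Prc1 (which bundles the microtubules of the spindle midzone), Ccnb1 (cyclin B1, the activating partner of Cdk1) and Nusap1 (a spindle microtubule protein). Prc1 and Nusap1 held 1 CHR and 2 CCAAT matches each, whereas Ccnb1 held 2 CCAAT matches and no TTTGAA.
Prc1, chr1:143659231-143659530, plus strand: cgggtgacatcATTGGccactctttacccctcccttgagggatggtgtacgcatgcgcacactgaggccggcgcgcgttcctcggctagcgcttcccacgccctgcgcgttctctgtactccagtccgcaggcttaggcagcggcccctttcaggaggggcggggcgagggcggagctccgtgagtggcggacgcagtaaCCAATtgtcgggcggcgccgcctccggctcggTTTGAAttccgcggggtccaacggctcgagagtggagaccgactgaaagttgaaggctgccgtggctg
Ccnb1, chr2:33655176-33655475, minus strand: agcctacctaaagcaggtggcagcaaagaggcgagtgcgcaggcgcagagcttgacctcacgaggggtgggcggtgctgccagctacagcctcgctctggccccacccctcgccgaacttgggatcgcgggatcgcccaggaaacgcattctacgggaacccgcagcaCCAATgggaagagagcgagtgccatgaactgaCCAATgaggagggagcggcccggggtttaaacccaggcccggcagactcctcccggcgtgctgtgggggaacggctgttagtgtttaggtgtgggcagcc
Nusap1, chr3:127057045-127057344, plus strand: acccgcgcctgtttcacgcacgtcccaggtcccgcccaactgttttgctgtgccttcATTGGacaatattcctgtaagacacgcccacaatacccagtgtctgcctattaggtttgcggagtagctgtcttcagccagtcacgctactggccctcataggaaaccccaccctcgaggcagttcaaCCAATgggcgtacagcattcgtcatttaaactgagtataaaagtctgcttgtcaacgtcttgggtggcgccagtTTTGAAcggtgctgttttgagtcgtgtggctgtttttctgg

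The last window is that of Cdk1, the kinase that drives entry into mitosis, shown because it alone among the mitosis genes held all 3 kinds of element, with 1 E2F, 2 CHR and 3 CCAAT matches. It was added after its motifs had been seen.
Cdk1, chr20:19265043-19265342, plus strand: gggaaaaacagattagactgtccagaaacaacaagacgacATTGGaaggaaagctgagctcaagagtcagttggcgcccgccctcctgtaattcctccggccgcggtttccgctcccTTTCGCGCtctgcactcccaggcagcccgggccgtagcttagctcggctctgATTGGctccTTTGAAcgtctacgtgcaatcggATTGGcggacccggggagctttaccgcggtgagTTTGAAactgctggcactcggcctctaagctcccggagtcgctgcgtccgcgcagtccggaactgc

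A match shows that the letters are there, not that a factor binds them. Genes from 2 further lists, of other replication and other mitosis genes, divided in the same way: 16 of 35 further replication promoters had an E2F site (45.7%) and 29 of 40 further mitosis promoters a CHR (72.5%), with 1 of 40 further mitosis promoters holding an E2F site. Over all expressed genes, those with an E2F site stood at a median log2 D5+/D5 of -0.15 and those with a CHR at -0.12, beside -0.12 for all genes with a window. For D5/D1 the medians were -0.34 and -0.30, beside -0.21.

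**Figure D1:**
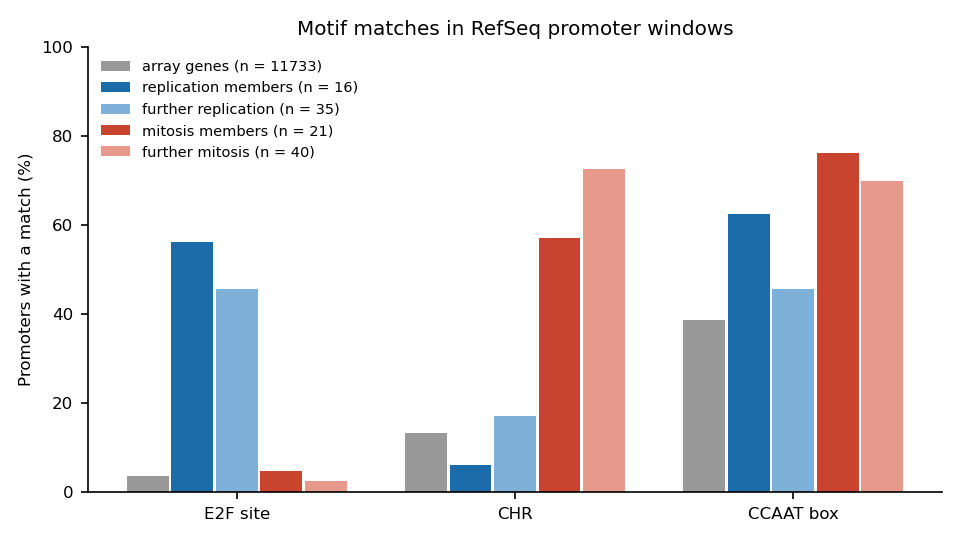
Share of promoter windows (%, y axis) with a match to the E2F sites, the CHR and the CCAAT box, for genes on the Affymetrix array (grey), replication genes (blue) and mitosis genes (red), with the further lists in paler colours. E2F bars are high for both replication lists and CHR bars for both mitosis lists.

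Every one of the 49 genes had its highest signal on D1. The share of all genes with their highest signal on D1 is not given here. All 49 were thus lower at D5 than at D1, against 62.5% of all expressed genes. At D5, 36 of 49 were lower past 2-fold, against 11.8% of all expressed genes, and none was higher past 2-fold, against 9.25%. The median of the 49 was a log2 D5/D1 of -1.41. With ICRF-193 the signals were lower again: 20 of the 47 genes in that comparison were lower past 2-fold at D5+ than at D5, against 5.87% of all genes, none was higher past 2-fold, against 3.18%, and the median log2 D5+/D5 was -0.83. In all 42 of 47 were lower to some extent, against 62.9% of all genes. When arrays were scaled to each other 38 to 40 of 47 were lower, and the median over all genes was then between -0.06 and 0.01. From D1 to D5+, a comparison that does not use the D5 array, 43 of 49 were lower past 2-fold, against 14.6% of all genes, none was higher past 2-fold, against 7.73%, and the median was -2.32; 69% of all genes were lower in that comparison. Of the 47 members expressed in both steps 42 were in the order D1 over D5 over D5+, as were 35.0% of the 10328 such genes. Since D5/D1 and D5+/D5 share the D5 array, an error there would move both. The floor was reached by all 49 on D1, by 46 on D5 and by 38 on D5+; the 11 under it on D5+ were Pola1, 7 mitosis genes and 3 others. With signals under the floor raised to it, the median log2 D5+/D5 of the members was -0.66 and 13 of 47 were lower past 2-fold.

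**Figure D2:**
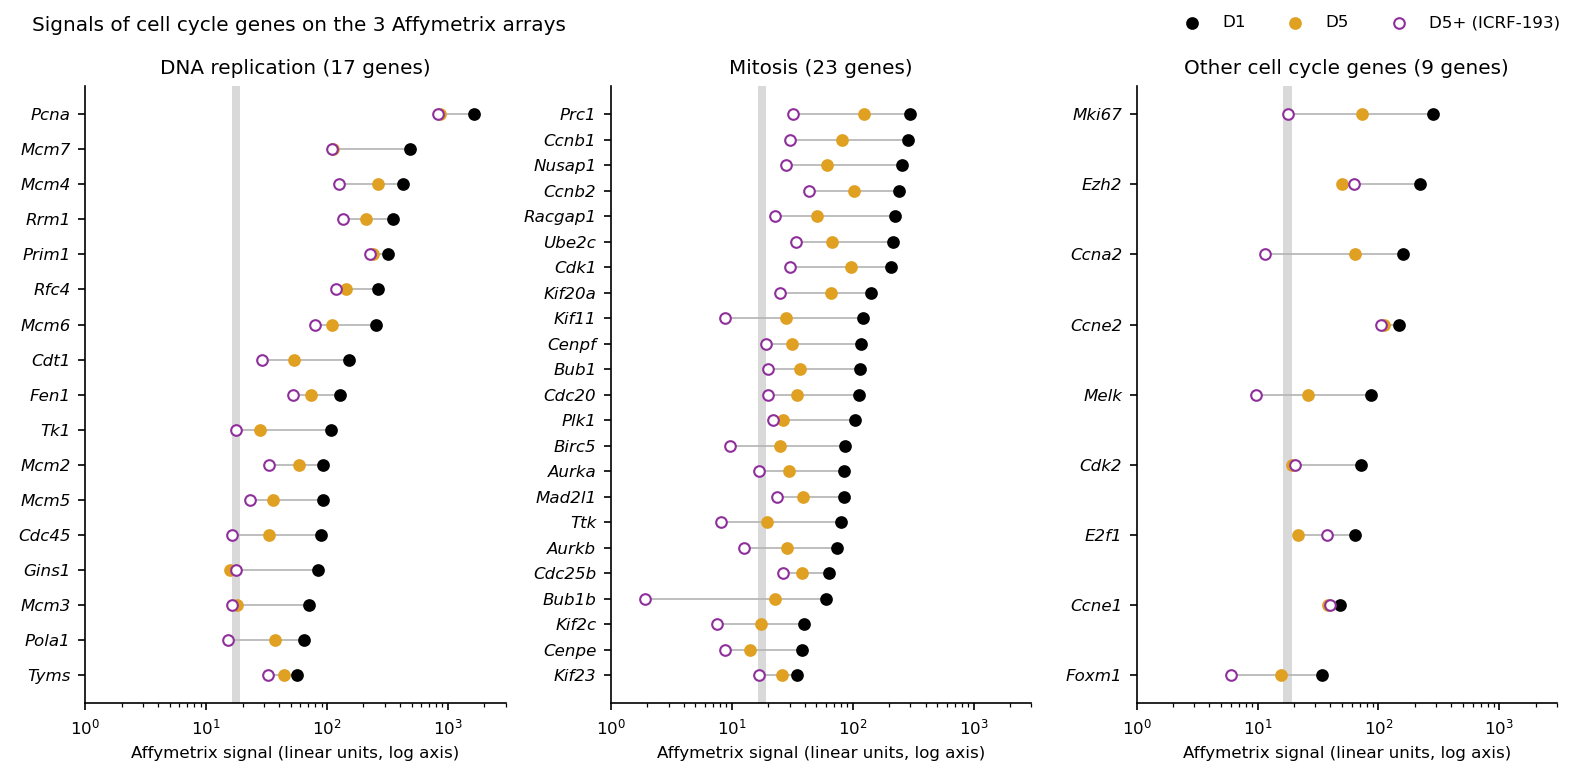
Affymetrix signal (linear units on a log axis) of the 49 genes on D1 (black), D5 (yellow) and D5+ (open purple), in panels for replication, mitosis and other genes, sorted by the D1 signal; the grey band spans the floors of the 3 arrays. Black points are rightmost in every row, and in the mitosis panel every open point lies left of the yellow one.

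Origin licensing and helicase genes were among the replication genes with the larger differences at D5, and 7 of 9 were lower past 2-fold. Mcm7, a subunit of the helicase ring, had a signal of 489.2 at D1, 112.1 at D5 and 110.9 with ICRF-193. Its change thus lay in the first step, 4.36-fold, and D5 and D5+ were alike to 1.01-fold. Mcm3 had 71.2, 18.1 and 16.4, and Gins1 had 84.2, 15.8 and 17.8, at least 5.04-fold lower at D5. Both were at or near the floor at D5, so that no decrease with ICRF-193 could be read in them. Mcm4 was read at 421.2, 265.1 and 124.7. The larger part of its change came with ICRF-193 (2.13-fold) rather than with time (1.59-fold). Mcm7 and Mcm4, subunits of one ring, therefore differed in the step at which their signals were lower. Between these, Mcm6 had 254.2, 109.7 and 79.3 and Mcm2 had 92.8, 58.5 and 32.9. Mcm5 had 92.8, 35.4 and 22.9. From D1 to D5+ all 6 Mcm genes were between 2.82-fold and 4.41-fold lower. Cdt1 had 150.8, 53.5 and 28.9, 5.22-fold lower over both steps. Cdc45 had 89.1, 32.8 and 16.3, which put its D5+/D5 ratio just past the threshold, at 2.01-fold, and its D5+ signal at the floor; a second probe set read it at 42.7, 21.4 and 22.7, with no decrease in the second step.

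None of the 5 polymerase and fork genes was lower past 2-fold at D5, which is near the share of all expressed genes, 11.8%. Pcna, the sliding clamp that holds polymerases on DNA, had the highest signals of all members, 1627.7, 854.4 and 820.6. It was 1.91-fold lower at D5, short of the threshold, and nearly level between D5 and D5+. Prim1, the primase subunit that makes RNA primers, had 320.2, 238.7 and 225.1, the smallest difference of any replication gene from D1 to D5+ (1.42-fold). Rfc4, of the complex that loads the clamp, had 265.4, 142.9 and 119.6, and Fen1, the flap nuclease of lagging strand synthesis, 128.9, 73.9 and 52.7. These fork proteins also act in DNA repair. Pola1, the catalytic subunit of the polymerase that starts each strand, stood apart, with 64.4, 36.9 and 15.3: the last signal was under the floor, at least 2.26-fold below D5.

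Of the enzymes that supply deoxynucleotides, Tk1 (thymidine kinase) had 107.1, 27.9 and 17.7 and was 6.05-fold lower at D5+ than at D1, the largest ratio of any replication gene. Rrm1, the large subunit of ribonucleotide reductase, had 351.9, 208.2 and 135.0, and Tyms (thymidylate synthase) 56.3, 44.2 and 32.3. None of these 3 was lower past 2-fold with ICRF-193, which is near the share of all expressed genes, 5.87%.

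Mitosis genes were lower at both steps. In the group of mitotic entry and exit, Ccnb1 had signals of 284.4, 81.4 and 30.5, and the related cyclin Ccnb2 had 239.7, 102.4 and 43.5. Cdk1 had 207.3, 95.9 and 30.1. Ube2c, the ubiquitin-conjugating enzyme that works with the anaphase-promoting complex, had 216.4, 67.5 and 33.7. All 4 were lower past 2-fold at each step, Ube2c at the second step by a margin right at the threshold, and Ccnb1 was 9.32-fold lower over both. Cdc20, the activator of that complex, had 113.5, 34.4 and 20 and passed 2-fold in the first step only (3.30-fold, then 1.72-fold). Another of the 5 Cdc20 probe sets read 90.1, 23.5 and 4.4, the last under the floor. Cdc25b, a phosphatase that activates Cdk1, had 63.7, 38.3 and 26.7 and passed in neither.

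All 7 mitotic kinase and checkpoint genes were lower past 2-fold at D5. Plk1 (polo-like kinase) had 103.6, 26.4 and 21.7. It was 3.92-fold lower at D5 than at D1, and 1.22-fold lower at D5+ than at D5. Bub1, a kinase of the spindle checkpoint, had 114.8, 36.5 and 20, and its partner Mad2l1 had 84.0, 38.8 and 23.5. Aurka, which acts at spindle poles, had 84.1, 29.9 and 16.8. These 4 were lower at D5+ than at D5 by under 2-fold. Aurkb, the kinase of the chromosomal passenger complex, had 73.6, 28.7 and 12.6, Ttk (Mps1, another checkpoint kinase) 79.7, 19.7 and 8.1, and Bub1b (BubR1) 60.1, 22.6 and 1.9. Although these 3 counted as lower past 2-fold with ICRF-193, their D5+ signals were under the floor, and against the floor the differences were at least 1.76-fold, 1.21-fold and 1.39-fold.

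Spindle, kinetochore and cytokinesis genes had 7 of 9 lower past 2-fold with ICRF-193. Prc1 had 299.3, 123.4 and 31.8 and was 3.88-fold lower at D5+ than at D5. Nusap1 had 256.8, 61.1 and 27.9, and Racgap1, part of the centralspindlin complex that organizes the cleavage furrow, had 222.9, 50.2 and 22.8. Kif20a, a midzone kinesin, had 141.3, 66.4 and 24.9. All of these stayed above the floor on each array. Kif11, the kinesin that pushes spindle poles apart, had 120.9, 28.1 and 8.7, at least 1.72-fold lower in the second step, and Birc5 (survivin) had 86.0, 25.0 and 9.7, at least 1.53-fold. Cenpf, a kinetochore protein, had 116.7, 31.2 and 19.2. Kif2c, the other of the 7 under the floor on D5+, had 39.3, 17.5 and 7.6, at least 1.07-fold lower. It, Kif23 and Cenpe had D1 signals of only 34.3 to 39.3 in the probe sets used here. A second Kif2c probe set read 62.4, 18.0 and 1.9, and a second Kif23 probe set 29.8, 10.8 and 1.7.

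Of the 9 other genes, some behaved like mitosis genes and others were near level between D5 and D5+. Mki67, the proliferation marker that coats mitotic chromosomes, had 280.8, 73.3 and 17.7, 15.9-fold lower over both steps. Ccna2 (cyclin A2, of S phase and mitotic entry) had 159.7, 64.4 and 11.5, at least 3.95-fold lower with ICRF-193. Melk, a kinase of dividing cells, had 86.1, 26.3 and 9.8. These 3 were counted as past 2-fold at D5+/D5, but Melk was under the floor on D5+, at least 1.61-fold lower. On the other side, the E-type cyclins of the G1/S transition were nearly level, Ccne1 at 48.1, 38.6 and 39.9 and Ccne2 at 148.1, 111.5 and 104.1. Their partner Cdk2 had 71.8, 19.3 and 20.5. E2f1, an activating E2F, had 63.6, 21.6 and 37.8 and Ezh2, the methyltransferase of Polycomb repressive complex 2, had 221.2, 49.5 and 63.1. Both were lower past 2-fold at D5 and higher at D5+ than at D5 by less than 2-fold (1.75-fold and 1.27-fold), but a second Ezh2 probe set had 200.3, 64.5 and 52.0, the other way round. Foxm1 was weak, with 34.4, 15.5 and 6.0.

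A total of 15 members had several probe sets. Their 38 probe sets include those already used as the gene values above. All 33 expressed in D5/D1 were lower at D5, against 62.5% of all expressed genes. Of the 25 expressed in D5+/D5, 21 were lower at D5+, against 62.9% of all expressed genes. These shares count 1 probe set per gene. Top2a, the topoisomerase II form of dividing cells (topo IIα) and a further target of ICRF-193, is not on the list. It had 271.8, 62.1 and 31.4, whereas Top2b had 1388.2, 900.5 and 933.8. According to the paper these granule cells make no topo IIα, which leaves topo IIβ as the sole target. The signals here are of RNA from the whole culture, and topo IIα protein was not read.

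The 2 classes were then set side by side, and the question was whether replication and mitosis genes moved by the same amount. At D5, 8 of 17 replication genes and 21 of 23 mitosis genes were lower past 2-fold, with median log2 D5/D1 of -0.93 and -1.49, a difference of 0.56. In the ICRF-193 comparison 3 of 17 replication genes and 14 of 22 mitosis genes were lower past 2-fold and the medians were -0.49 and -1.16, a difference of 0.68. Which of the 2 differences was the larger depended on low signals, since with signals raised to the floor they were 0.56 and 0.31. Of all pairs of 1 replication and 1 mitosis gene, the replication gene had the higher log2 ratio in 66.0% for D5/D1 and in 84.5% for D5+/D5. From D1 to D5+ the medians were -1.76 and -2.55. The classes overlapped in each comparison, and the division at D5 ran partly within the replication class, since licensing and helicase genes had a median of -1.44, close to the mitosis genes, and polymerase and fork genes one of -0.80. With ICRF-193 the licensing genes had a median of -0.63, the fork genes -0.26, and the 3 mitosis groups -1.12, -0.87 and -1.20.

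Low signals bear on the size of the difference with ICRF-193, because 7 mitosis genes and 1 replication gene were under the floor on D5+. With signals raised to the floor, the medians for D5+/D5 were -0.49 and -0.80, and 3 of 17 replication and 8 of 22 mitosis genes were lower past 2-fold. Of genes with a D5 signal of 50 or more, a limit chosen after the values were seen, 1 of 10 replication genes (Mcm4) and 8 of 8 mitosis genes were lower past 2-fold, against 4.67% of all 7672 such genes. The 8 were Ccnb1, Ccnb2, Cdk1, Ube2c, Prc1, Nusap1, Racgap1 and Kif20a. Their D5+ signals, from 22.8 to 43.5, were above the floor. Their D5 signals ranged from 50.2 to 123.4. The SD of log2 D5+/D5 between probe sets for one gene was 0.39 at D5 signals of 50 to 100. At 100 to 200 it was 0.25. This spread was sorted by the D5 signal and does not tell how firm the lower D5+ signals are. Other scalings of the arrays to each other kept the order of the class medians in each comparison, with -0.38 to -0.43 for replication and -1.06 to -1.11 for mitosis in D5+/D5.

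**Figure D3:**
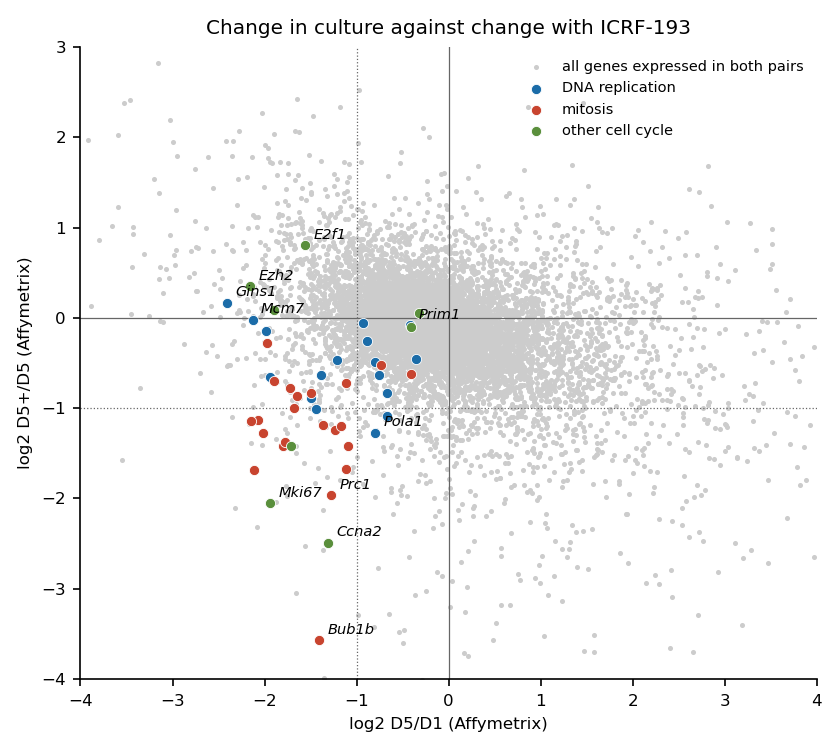
Log2 ratio D5/D1 (x axis) against log2 ratio D5+/D5 (y axis) on the Affymetrix arrays for replication (blue), mitosis (red) and other cell cycle genes (green) over all genes expressed in both steps (grey; genes beyond the axes are not drawn); dotted lines mark 2-fold lower, and the D5 array enters both axes. All coloured points lie left of 0, and mitosis genes lie lower than most replication genes.

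The other replication and mitosis genes, taken from lists that leave out the members, differed in the same direction. Among further replication genes 10 of 36 were lower past 2-fold at D5 and 0 of 30 with ICRF-193, with medians of -0.72 and -0.22. Among further mitosis genes the counts were 26 of 35 and 9 of 32, and the medians -1.42 and -0.74. Of all expressed genes 11.8% and 5.87% were lower past 2-fold in these comparisons, so that 0 of 30 is near the background. Of the 9, Aspm, Cenpi and Pbk were under the floor on D5+ and short of 2-fold against it. The 6 replication genes with the largest measured ratios at D5 included Dscc1, 2.85-fold lower, and Rfc3, 2.28-fold lower. In the other 4 the D5 signal was under the floor: Pole2 (a subunit of polymerase epsilon) was at least 3.63-fold lower, Chaf1b at least 2.57-fold, Uhrf1 at least 2.22-fold and Mcm10 at least 1.68-fold, and they have no order among themselves. On the side of mitosis, Cks2, a small protein that binds Cdk1, had 457.1, 103.0 and 39.5, and Ect2, the activator of RhoA in cytokinesis, had 185.3, 41.2 and 18.3. Both were among the 6 with the largest measured ratios at each step and stayed above the floor. At D5 the others were Kif15 (7.32-fold lower), Sgo1 (4.80-fold), Plk4 (4.11-fold) and Haspin, whose D5 signal was under the floor (at least 2.31-fold). With ICRF-193 they were Ccnf, Kif20b, Aspm and Pbk, all under the floor on D5+ and lower by at least 2.53-fold, 2.12-fold, 1.88-fold and 1.74-fold. Cit (citron kinase, of cytokinesis), named after its values were seen, was the single mitosis gene higher past 2-fold at D5, with 32.5, 124.7 and 111.4.

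**Figure D4:**
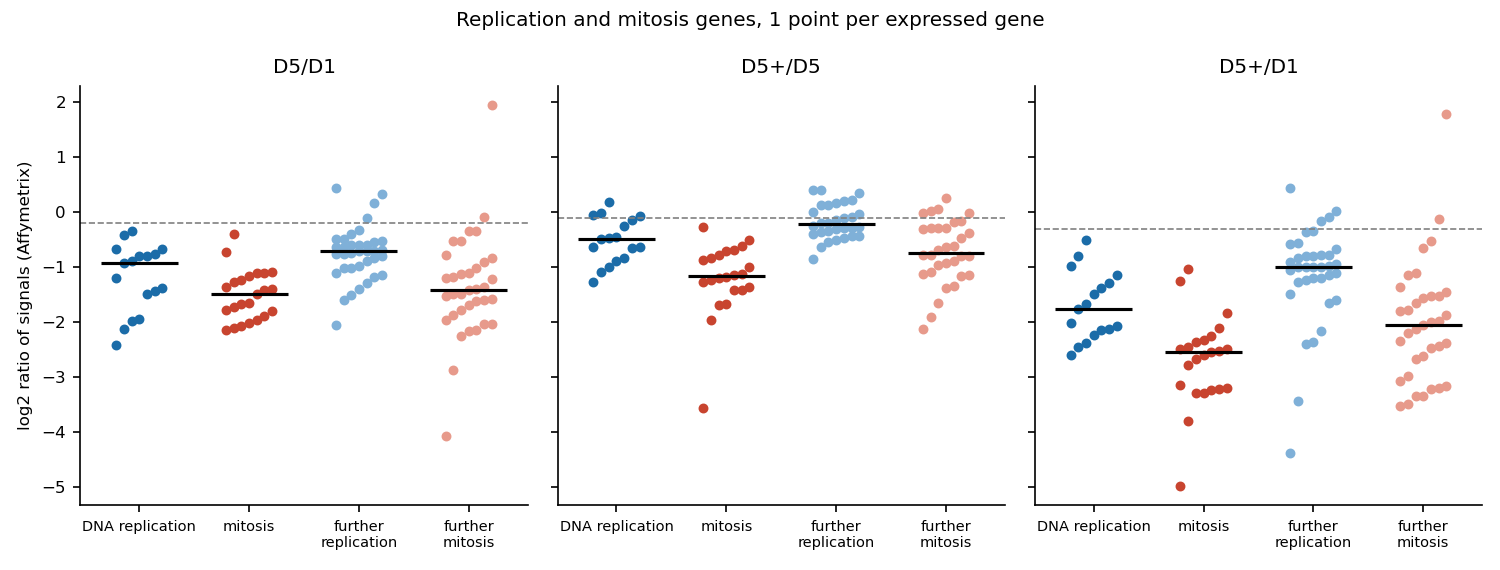
Log2 ratios of Affymetrix signals (y axis) for D5/D1, D5+/D5 and D5+/D1, with 1 point for each expressed gene of the replication and mitosis members and of the further lists; black bars are medians and the dashed line is the median of all genes. The mitosis median is below the replication median in all 3 panels for both pairs of lists.

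The regulators upstream of S phase did not move as one. Of the D-type cyclins, which start the cycle with Cdk4 and Cdk6, Ccnd2 had 1960.1, 675.4 and 613.8, and Ccnd1 had 187.0, 290.3 and 211.2. Cdk4 had 1170.6, 367.4 and 301.9. Ccnd2 and Cdk4 were thus lower past 2-fold at D5 and close to level from D5 to D5+, while Ccnd1 was higher at D5 by less than 2-fold. Cdkn1a (p21, an inhibitor of cyclin-dependent kinases) had 85.2, 165.8 and 203.6 and was 2.39-fold higher at D5+ than at D1, but under 2-fold in either step. Cdkn1b (p27), the inhibitor of resting neurons, was high throughout, at 2343.0, 1997.2 and 1793.4. Among the 5 G1 cyclin and kinase genes in the ICRF-193 comparison 0 were lower past 2-fold, and among 13 inhibitors and pocket proteins 1 was, Cdkn2c, with 167.1, 103.5 and 47.6; with 5.87% of all genes lower past 2-fold, such counts are near the background. Rb1 had 376.8, 184.0 and 219.3 and the related Rbl1 had 57.1, 19.9 and 15.1. Of 14 other E2F, MYB and MuvB genes 6 were lower past 2-fold at D5, against 11.8% of all genes. These 6 were led by Tfdp2 (a partner of the E2Fs), with 386.2, 48.8 and 78.8, and E2f2, with 99.6, 14.4 and 13.5. E2f2 was under the floor on D5, at least 5.96-fold lower. E2f7 and E2f8, also among the 6, were under the floor on D5 and short of 2-fold against it, at least 1.31-fold lower each. Of the genes of this list on the two-colour arrays, 3 were below 0 in D5/D1 and 3 above, E2f7 the highest at 2.25. With ICRF-193 0 of 10 were lower past 2-fold, again near the background. Mybl2 was near the floor, with 30.1, 15.6 and 11.9.

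The two-colour arrays gave log ratios whose base is not stated, so signs and order are given rather than folds. D5/D1 was below 0 for 36 of 43 members, against 48.2% of all genes, and D5/D5+ was above 0, that is lower with ICRF-193, for 34 of 43, against 51% of all genes. The medians of the members were -0.37 and 0.20, beside 0.01 and 0.00 for all genes. Mki67 had -0.95 and 0.95, Ccna2 -1.13 and 0.68, Ube2c -1.34 and 0.76. Prc1 had -0.38 and 0.67. All 4 had the signs seen on the Affymetrix arrays. Mcm7 had -1.65 and -0.29 and Mcm4 -0.14 and 0.75, the same division of the steps between these helicase subunits as on the Affymetrix arrays. Ezh2 had -1.63 and -0.23 and E2f1 -0.91 and -0.14. Rrm2, the small subunit of ribonucleotide reductase and read here only, had -0.65 and 0.45, and Cdc6, a licensing factor, -0.00 and 0.13.

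For the 2 classes, the two-colour arrays gave a different picture at D5. The median log ratio D5/D1 was -0.35 for 18 replication genes and -0.38 for 17 mitosis genes, a difference of 0.03. For D5/D5+ it was 0.17 and 0.32, with 14 of 18 replication and 16 of 17 mitosis genes above 0. The further lists did not repeat this order, since their medians were 0.11 for replication and 0.08 for mitosis. For D5/D1 the further lists had medians of -0.11 and -0.22, a difference of 0.11 in the direction seen on the Affymetrix arrays.

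Gene by gene the platforms had opposite signs for 7 of 41 members in D5/D1, which were Prim1, Fen1, Cdc20, Aurkb, Mad2l1, Birc5 and Ccne1. In the ICRF-193 comparison signs were opposite for 8 of 41, which were Mcm5, Mcm7, Gins1, Pcna, Fen1, Bub1, Ccne1 and Foxm1. Signs were the same for 82.9% and 80.5% of the members in the 2 comparisons. The shares were 70.7% and 66.3% for all genes on both platforms that were expressed in the Affymetrix comparison. Mad2l1 had the highest two-colour values of any member, 0.44 and 1.33, and Fen1 the lowest D5/D5+ (-1.14), beside Affymetrix signals of 128.9, 73.9 and 52.7. Across the 41 genes, which are not independent replicates and share their arrays, the platforms correlated with a Pearson's r of 0.47 (D5/D1) and 0.41 (D5/D5+). It was 0.59 and 0.49 across the 6968 and 6915 genes on both that were expressed in the Affymetrix comparison. The 41 were not filtered in this way, so that Foxm1, under the floor on D5 and D5+, is among them.

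**Figure D5:**
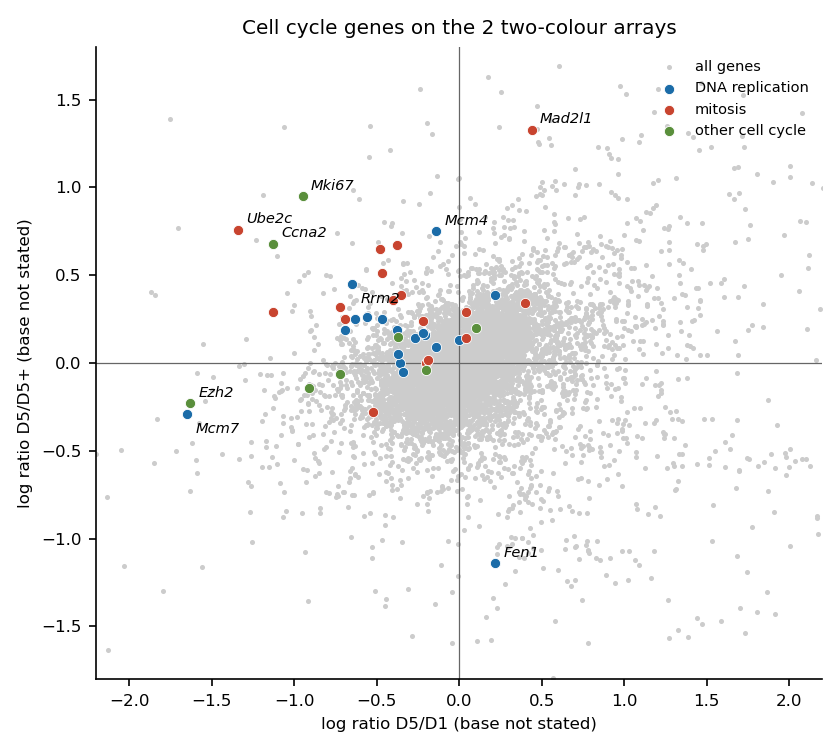
Two-colour log ratio D5/D1 (x axis) against D5/D5+ (y axis), base of the log not stated, for replication (blue), mitosis (red) and other cell cycle genes (green) over all genes (grey; genes beyond the axes are not drawn). Most members lie at the upper left, lower at D5 than D1 and lower with ICRF-193, with Fen1 and Mad2l1 far from the rest.

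Markers of the cell types a cerebellar culture can hold were read beside these values, since in bulk RNA fewer cells of a type and less RNA per cell cannot be told apart. Granule neuron markers reached the floor in 10 of 11 on D1 and 11 of 11 on D5 and D5+, with summed signals of 10026.4, 7983.2 and 7878.4, of which Neurod1 gave 5653.8 on D1. They went both ways at D5, with 3 of 11 lower and 3 higher past 2-fold, among the latter Gabra6 (11.4-fold). Of all expressed genes 11.8% were lower and 9.25% higher past 2-fold at D5. With ICRF-193 none of the 11 passed 2-fold, which is near the shares of all genes, 5.87% lower and 3.18% higher. Of the 11 markers 7 were above D5, and the median log2 D5+/D5 was 0.32, beside -0.12 for all genes. Markers of granule cell precursors summed to 761.6, 167.7 and 146.8, and 4 of their 6 genes reached the floor on each array; Gli1 and Hhip were under it on all 3, and Atoh1 and Ptch1 were not named on the array. Precursor markers, like the cell cycle genes, were thus lower at D5. With ICRF-193 they were close to level, while 7 markers of astrocytes and radial glia out of 10 expressed were lower past 2-fold at D5+ than at D5, and that list summed to 4688.7, 6682.6 and 3110.0. Gfap, the filament protein of astrocytes, had 1016.1, 1511.9 and 167.0, and Slc1a3, their glutamate transporter, had 1084.1, 1170.4 and 247.2. S100b, with 120.8, 339.3 and 512.9, and Gja1, with 469.2, 921.2 and 1062.8, went the other way in the second step, and on the two-colour array S100b (-0.72) and Aldh1l1 (-0.20) were higher with ICRF-193 among the 9 astrocyte markers read there. At D5 the astrocyte sum was above that of D1, opposite to the cell cycle genes. Oligodendrocyte markers summed to 2649.5, 1769.1 and 2707.9, microglial markers to 861.1, 1002.2 and 756.1, and endothelial, mural and meningeal markers to 494.7, 1718.5 and 4128.6. Of the last sum, Col3a1, Col1a1 and Acta2 gave 2212.3, 982.1 and 650.2. Among the 10 genes of that list expressed in D5+/D5, 7 were higher at D5+ and 3 lower (Kdr, Tek and Rgs5), where 62.9% of all genes were lower. Pecam1 was under the floor on all 3 arrays and Cdh5 was not named on the array. No marker was at 0 on any array. The part of these cell types in the cell cycle results was not tested.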

How the data were processed

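Rat cerebellar granule cells were read on 3 Affymetrix rat genome arrays, 1 per condition, and on 2 two-colour arrays. Affymetrix values, as deposited, are intensities on a linear scale, which the authors obtained from GCOS and MAS5 (versions not given in the sources used here). Scaling at the 50th percentile is described, but the array medians differ (32.9, 29.2 and 28.0), and no rescaling was applied. The two-colour arrays were deposited as other values, log ratios of Cy5 over Cy3; base (log2 or natural log), background correction and normalization: not given in the sources used here. Their medians were 0.0057 and 0.0015. Arrays give no count depth; their number limits precision.

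Symbols came from the platform annotation, updated through Entrez IDs to a RefSeq table of GRCr8. Of 31042 probe sets, 20826 had 1 symbol, 436 several and 9780 none; of 20500 two-colour probes, 12750 had 1. Each gene was represented by the probe set of highest mean log2 signal, with 0.1 in place of a signal of 0. Two-colour probes of a gene were averaged. A low signal can hold non-specific hybridization, which narrows ratios. Detection calls were not used here; the 40th percentile of each array was used as a floor in their place. Groups came from the sample labels. Calls were made at 2-fold, and no test was possible with 1 array per condition.

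Every member could be named; from each further list up to 6 genes with the largest ratio in the direction of the list's median were named, with a few upstream regulators set by name. Members and lists were chosen with earlier results of these data known. Alternatives covered the floor, the fold threshold, the probe set rule, scaling between arrays, an added offset and the further lists; signals raised to the floor, members with a D5 signal of 50 or more and members on both platforms were added after the data were seen. Promoter windows were RefSeq sequences of GRCr8. Scripts were tested on simulated data and run with Python 3.11.15, numpy 2.4.6, pandas 2.3.3 and matplotlib 3.10.9.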

Additional observations from a re-analysis of the deposited data

How the results depend on the processing

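Across 73 alternatives, 59 kept the direction and stayed within 1.5 times the value given. Of the others 13 moved past 1.5 times with the direction kept, and 1 reversed. No paired analysis was possible because there was 1 array per condition. Members lower at D5 than at D1 numbered 19 of 49 at a 3-fold threshold. Members lower with ICRF-193 numbered 10 of 21 with a floor of the 60th percentile, 7 of 47 with the floor value added to every signal, 13 with signals raised to the floor, 31 at a 1.5-fold and 6 at a 3-fold threshold. The difference between replication and mitosis medians for D5/D1 was 0.27 with the floor value added and 0.34 for members on both platforms; for D5+/D5 it was 0.27 with the floor value added and 0.31 with signals raised to the floor; for D5+/D1 it was 0.49 with the floor value added and 1.55 for members with a D5 signal of 50 or more. On the two-colour arrays the further lists gave a difference of 0.11 for D5/D1, and 0.03 for D5/D5+, where the sign was reversed against the members (-0.15). Scaling the arrays to each other moved the share of lower among all 2-fold calls from 55.9% to between 42.3% and 43.1% for D5/D1, from 64.9% to between 56% and 59% for D5+/D5, and from 65.4% to between 45.6% and 48.7% for D5+/D1. Under these scalings the median over all genes moved to between -0.04 and -0.02 for D5/D1. Of the members, 49 of 49 remained below 0 in D5/D1 and 38 to 40 of 47 in D5+/D5. In D5+/D1 48 of 49 remained below 0 when arrays were scaled to the medians of expressed probe sets. The cause of each shift was not tested. With 1 array per condition, signals near the floor limit what can be said of the mitosis genes at D5+.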
